A study of Mus musculus with 16 samples.

Results

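The endothelin system was followed through 5 genes, selected by their symbols from the 43346 genes of the table: the ligand genes Edn1 and Edn3, the receptor genes Ednra and Ednrb, and Ece1, which encodes endothelin converting enzyme. On mm10, in the coordinates of the deposited table, Edn1 (ENSMUSG00000021367) spans chr13:42301270-42307989 on the plus strand and Edn3 (ENSMUSG00000027524) spans chr2:174760619-174784042 on the plus strand. Ednra (ENSMUSG00000031616) spans chr8:77663031-77724464 on the minus strand, Ednrb (ENSMUSG00000022122) spans chr14:103814625-103844173 on the minus strand and Ece1 (ENSMUSG00000057530) spans chr4:137862237-137965229 on the plus strand. All 5 are protein coding, their values cover the exons of the gene as a whole, and all 5 had an adjusted p in every comparison.

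Endothelins are small peptides that endothelial cells (ECs, the lining of blood vessels) and a few other cell types secrete. The ligand genes encode long precursors, which furin-type proteases cut first and endothelin converting enzyme then trims to the active peptide. The receptors are G protein-coupled. The A receptor sits mainly on smooth muscle cells and pericytes, the contractile cells around vessels, where endothelin-1 makes them contract, while the B receptor of ECs drives release of the relaxing signals nitric oxide and prostacyclin and removes endothelin-1 from the circulation. The A receptor prefers endothelin-1 over endothelin-3, and the B receptor binds both. In the lung, Ednrb is a known marker of aerocytes, the Car4-rich capillary ECs of the gas exchange surface.

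RNA was sequenced from ECs of FVB mice aged 2 months (Young) or 18 months (Aged) that had received bleomycin, an airway-delivered drug that injures the lung and leads to fibrosis, or vehicle (Sham). The 16 libraries comprised Young Sham (n = 5, libraries 21 to 25), Young Bleo (n = 4, libraries 17 to 20), Aged Sham (n = 3, libraries 13 to 15) and Aged Bleo (n = 4, libraries 1, 2, 3 and 5). Per the study's methods, all animals carried a Col1a1-GFP transgene, lungs were taken about a month after treatment, and the sort kept CD31-positive cells lacking CD45, EpCAM and GFP. Each library is taken as 1 mouse on the word of the study, since the labels do not say so, and the p-values measure the spread between these libraries. Because the samples are bulk RNA, fewer cells of a type and less RNA per cell cannot be told apart.

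Libraries held 20.9 to 71.0 mega-counts. The RNA integrity ranges in the study's methods lay higher in each bleomycin group than in the sham group of its age, with some overlap. The part of RNA integrity in the results was not tested. Endothelial markers were high in every library: summed FPKM (fragments scaled to gene length and sequencing depth) of 6 pan-endothelial markers was 2140 to 2452 in Young Sham, 1940 to 2052 in Aged Sham, 1478 to 1841 in Young Bleo and 1320 to 1877 in Aged Bleo, and Cdh5, VE-cadherin, was at 67.6 to 111 FPKM. The sum was thus lower in bleomycin than in sham libraries without overlap. Most of it was Cldn5, a tight junction gene, which fell by 0.92 in Young Bleo and by 0.84 in Aged Bleo against Young Sham and by 0.82 in Aged Bleo against Aged Sham. Emcn of the same list rose by 0.54 on the log2 scale in Young Bleo against Young Sham (DESeq2 adjusted p = 0.0156). It was lower in Aged Bleo than in Young Bleo, at -0.80 (DESeq2 adjusted p = 0.00345). Median log2 fold changes over the 6 markers were 0.00027 in Young Bleo and -0.20 in Aged Bleo against Young Sham. Ednrb and Ednra also had lower means in the bleomycin groups, and the part of the shift in the sum in those results was not tested. CD45 (Ptprc) reached at most 0.517 FPKM and Epcam at most 0.798 FPKM. Other epithelial markers were present: the surfactant gene Sftpc was at 43.4 to 378 FPKM and the club cell gene Scgb1a1 at 1.63 to 399 FPKM, and the sum over 6 epithelial markers was 61.5 to 565 FPKM in Young Sham, 146 to 535 in Young Bleo, 134 to 646 in Aged Sham and 165 to 410 in Aged Bleo. Some libraries stood apart from their groups. On the first principal component of the 500 most variable genes, computed without the endothelin genes and all listed genes and holding 47.2% of the variance, Young Bleo 17, 18 and 19 scored 42.2, 37.4 and 30.7 and Young Bleo 20 scored 2.96. Aged Bleo 1 and 2 scored 59.1 and 54.6, whereas Aged Bleo 3 and 5 scored 6.93 and 10.1. Aged Sham 14 scored -0.593 against -29.9 and -30.8 for Aged Sham 13 and 15, and Young Sham lay between -44.7 and -31.6. Several fold changes of the 5 genes are therefore also given with single libraries left out, whereas the values of marker and pathway lists are given over all libraries.

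The promoter sequences of the 3 genes that passed the test in at least 1 comparison are shown first, to set the letters of known endothelial and injury-related motifs beside the transcript values. RefSeq windows on GRCm38.p6 reach from 250 bases before to 50 bases after an annotated start, and all 5 genes matched. Capitals mark letters of 4 motifs on either strand. These are AGATAA for the GATA factors, TGANTCA for AP-1, ACGTG and its variant with a leading G, written GCGTG, for the hypoxia response core, and AGGAAG for the ETS family, to which Erg belongs. No marked run overlapped another in these 3 windows. The windows are Edn1 at chr13:42301226-42301525 (plus strand), Ednrb at chr14:103843652-103843951 (minus strand) and Ednra at chr8:77724403-77724702 (minus strand), each written 5′ to 3′ on its gene's strand.
Edn1: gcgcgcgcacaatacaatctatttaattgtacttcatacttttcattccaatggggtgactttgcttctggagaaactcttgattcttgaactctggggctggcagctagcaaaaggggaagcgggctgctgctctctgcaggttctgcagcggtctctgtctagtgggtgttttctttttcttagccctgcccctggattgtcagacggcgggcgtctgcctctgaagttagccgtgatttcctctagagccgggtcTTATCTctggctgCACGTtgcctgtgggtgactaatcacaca
Ednrb: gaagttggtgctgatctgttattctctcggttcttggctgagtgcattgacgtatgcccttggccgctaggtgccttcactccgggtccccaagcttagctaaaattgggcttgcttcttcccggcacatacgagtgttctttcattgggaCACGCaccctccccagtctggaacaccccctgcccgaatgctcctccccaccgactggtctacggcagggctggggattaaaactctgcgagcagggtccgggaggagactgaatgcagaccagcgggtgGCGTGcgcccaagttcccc
Ednra: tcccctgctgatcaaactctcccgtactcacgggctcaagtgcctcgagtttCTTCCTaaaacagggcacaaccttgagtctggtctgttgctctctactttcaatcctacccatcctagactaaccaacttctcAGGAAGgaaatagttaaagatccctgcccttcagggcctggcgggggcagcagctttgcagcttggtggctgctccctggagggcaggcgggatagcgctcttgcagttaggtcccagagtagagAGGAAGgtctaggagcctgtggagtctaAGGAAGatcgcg

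With positions counted from 0 at the annotated start, the Edn1 window held a GATA match at 8 and a hypoxia core at 21. The Ednrb window held hypoxia cores at -99 and 31. The Ednra window held 4 ETS matches, at -198, -115, 10 and 38. The exact letters TGANTCA were not found in these windows, and AP-1 sites of other spelling were not searched for. Of all 32851 promoter windows of this length, 11.2% held the GATA letters, 7.81% AP-1, 43.8% the hypoxia core and 35.4% ETS. The matches describe letters only. The deposited models of Edn1 and Ednrb begin upstream of these RefSeq starts.

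In Young Sham, the receptor Ednrb was the most abundant of the 5 transcripts per length, at 110 to 144 FPKM. Ece1 followed at 37.7 to 77.7 FPKM and the ligand Edn1 at 16.2 to 22.6 FPKM. The A receptor, Ednra, was at 0.807 to 1.78 FPKM and the second ligand, Edn3, at 0.125 to 0.573 FPKM. No neighbours in this order overlapped. The order was different after bleomycin: Edn1 (34.6 to 64.4 FPKM), Ece1 (28.5 to 61.0 FPKM) and Ednrb (7.83 to 62.3 FPKM) overlapped in Young Bleo, and the same genes overlapped in Aged Bleo at 34.7 to 96.3, 27.6 to 68.3 and 6.29 to 68.6 FPKM. Within Young Bleo 17, 18 and 19 and Aged Bleo 1 and 2, Edn1 was above Ece1 and Ece1 above Ednrb. Within Young Bleo 20 and Aged Bleo 3 and 5 this order was reversed. In Aged Sham, Ednrb led at 59.7 to 117 FPKM, Ece1 (26.7 to 48.2 FPKM) and Edn1 (14.6 to 44.8 FPKM) overlapped, and Ednra (0.555 to 1.24 FPKM) stayed above Edn3 (0.00638 to 0.231 FPKM).

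**Figure D1:**
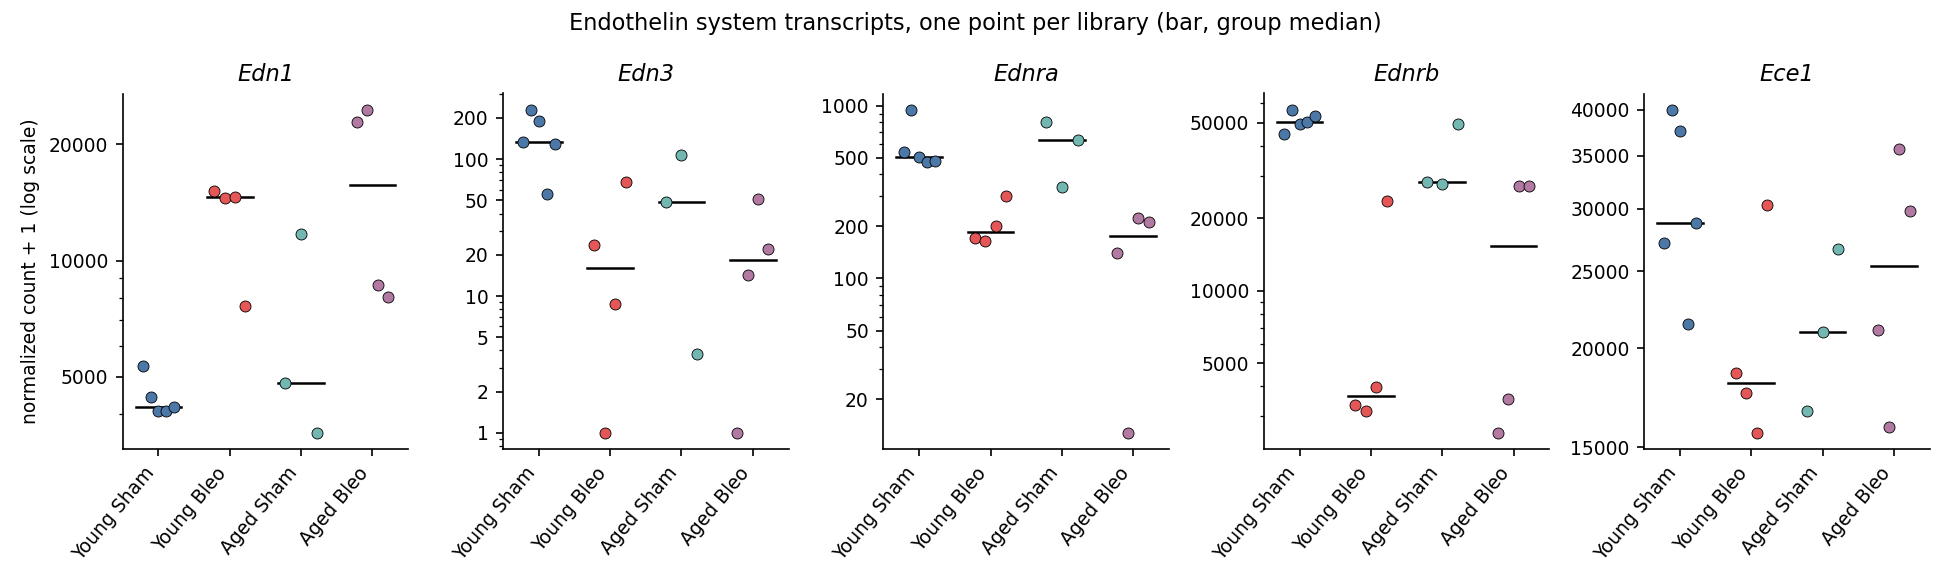
Normalized count plus 1 (log scale) of each gene, with 1 point per library in 4 groups and a bar at the group median. Edn1 was above all Young Sham libraries in every bleomycin library and Ednra below them, while Ednrb fell into a low and a higher set of libraries in both bleomycin groups.

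Bleomycin in young mice was accompanied by the most calls: with DESeq2, 3 of the 5 genes differed between Young Bleo and Young Sham at an adjusted p no higher than 0.05 and a log2 fold change of 0.5 or more in size (called, below), against 13.7% of all genes tested. Edn1 was higher (7.44% of all genes were called higher) and Ednrb and Ednra were lower (6.26% called lower). The edgeR quasi-likelihood test called 2 of the 5, Edn1 and Ednrb, against 9.78% of its genes. Between Aged Bleo and Young Sham 2 genes were called, Edn1 higher and Ednra lower, by DESeq2 (9.59% of all genes, 6.49% higher and 3.09% lower) and likewise by edgeR (5.69%). Between Aged Bleo and Aged Sham DESeq2 called the same 2 genes in the same directions (5.93% of all genes, 3.45% higher and 2.48% lower), and edgeR called 0, with 2 at an unadjusted p under 0.05 and 0.797% of its genes called. These comparisons share Young Sham or Aged Bleo libraries and are not independent of each other.

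No gene of the 5 was called for age. Aged Sham against Young Sham gave 0 calls by DESeq2, edgeR or limma voom and 0 at an unadjusted p under 0.05 by DESeq2 or edgeR, and 1 by limma voom, where 3.29% of all genes were called by DESeq2 (2.19% higher and 1.1% lower). The 1 was Edn3, with a log2 fold change of -2.66 by limma voom (unadjusted p = 0.0487, limma adjusted p = 0.45) and of -1.49 ± 1.17 SE by DESeq2 (adjusted p = 0.605), named here after its values were seen. Aged Bleo against Young Bleo also gave 0 calls and 0 at an unadjusted p under 0.05 (1.02% of all genes called). Subtracting the young bleomycin response from the aged one gave 0 calls (0.382% of all genes called), with Ece1 alone at an unadjusted p under 0.05.

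**Figure D2:**
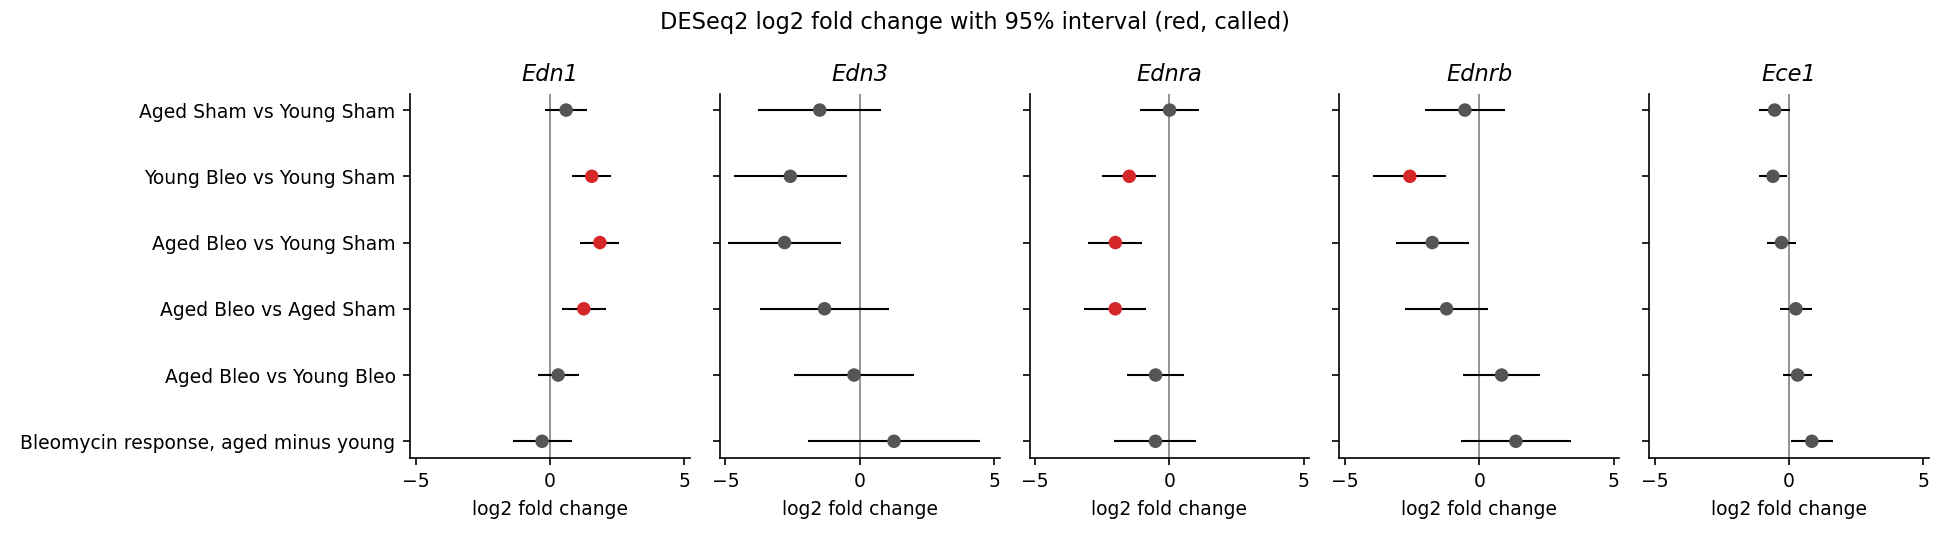
DESeq2 log2 fold change (x axis) with its 95% interval for each gene in 6 comparisons, with called values in red. Edn1 and Ednra were called in all 3 bleomycin comparisons and Ednrb in Young Bleo against Young Sham, while the intervals for Aged Sham against Young Sham spanned 0 for all 5 genes.

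Edn1 encodes endothelin-1, the chief endothelin of ECs. Its normalized counts were 5348, 4432, 4093, 4077 and 4172 in Young Sham 21 to 25, and 15130, 14552, 14574 and 7616 in Young Bleo 17 to 20. All Young Bleo libraries lay above all Young Sham libraries, with library 20 nearest to them. Edn1 was 2.93-fold higher in Young Bleo (log2 fold change 1.55 ± 0.37 SE, DESeq2 adjusted p = 0.000636, edgeR adjusted p = 0.0148). Without Young Bleo 20 the log2 fold change was 1.74.

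In aged mice, Edn1 stood at 4810, 11718 and 3584 normalized counts in Aged Sham 13, 14 and 15, and at 22773, 24550, 8628 and 8065 in Aged Bleo 1, 2, 3 and 5. Aged Sham 14 exceeded 2 of the Aged Bleo libraries, so the aged groups overlapped, whereas all Aged Bleo libraries lay above Young Sham. Against Young Sham, Edn1 was 3.62-fold higher in Aged Bleo (log2 fold change 1.85 ± 0.37 SE, DESeq2 adjusted p = 3.42e-05, edgeR adjusted p = 0.00834). Without Aged Bleo 1 this log2 fold change was 1.64 and without Aged Bleo 2 it was 1.57, and both were still called. Against Aged Sham it was 2.39-fold higher (log2 fold change 1.26 ± 0.42 SE, DESeq2 adjusted p = 0.046, edgeR adjusted p = 0.147). This call rested on single libraries: without Aged Sham 14 the log2 fold change was 1.93 (DESeq2 adjusted p = 0.0003), and without Aged Bleo 1, Aged Bleo 2, Aged Sham 13 or Aged Sham 15 it was 1.04, 0.97, 1.06 and 0.95 and was not called. For age alone, Edn1 had a log2 fold change of 0.60 ± 0.40 SE (DESeq2 adjusted p = 0.516), and without Aged Sham 14 this was -0.08.

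Ednrb encodes the B receptor. Young Sham libraries held 44861, 56553, 49394, 50262 and 53062 normalized counts, and Young Bleo 17 to 20 held 3333, 3159, 3962 and 23573. The groups did not overlap, and Young Bleo 20 kept far more Ednrb than the other three. Ednrb was 5.97-fold lower in Young Bleo (log2 fold change -2.58 ± 0.69 SE, DESeq2 adjusted p = 0.00308, edgeR adjusted p = 0.0365). Without Young Bleo 20 the log2 fold change was -3.86, and without any other Young Bleo library in turn it lay between -2.34 and -2.30.

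In aged mice Ednrb was at 28393, 27809 and 49304 normalized counts in Aged Sham 13, 14 and 15 and at 2561, 3533, 27324 and 27177 in Aged Bleo 1, 2, 3 and 5. Aged Bleo 1 and 2 were as low as the lowest Young Bleo libraries, and Aged Bleo 3 and 5 lay just under Aged Sham 13 and 14. Against Young Sham the groups did not overlap, and the log2 fold change was -1.75 ± 0.69 SE, which missed the threshold with DESeq2 (adjusted p = 0.086) and edgeR (adjusted p = 0.169) and passed it with limma voom (adjusted p = 0.0387). With each Aged Bleo library left out in turn it lay between -2.20 and -1.39, and DESeq2 then withheld the adjusted p. Against Aged Sham it was -1.22 ± 0.79 SE (DESeq2 adjusted p = 0.428), also without overlap, by a narrow margin, and it ranged from -1.67 without Aged Bleo 3 to -0.86 without Aged Bleo 1. Aged Sham against Young Sham gave -0.53 ± 0.75 SE (DESeq2 adjusted p = 0.81, 95% interval -2.01 to 0.95), and the aged response differed from the young by 1.36 ± 1.05 SE (DESeq2 adjusted p = 0.79, 95% interval -0.69 to 3.42). Without Young Bleo 20 this difference was 2.65 (DESeq2 adjusted p = 0.12), and without any other library in turn it lay between 0.91 and 1.71.

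Ednra encodes the A receptor. It was at 535, 947, 502, 474 and 480 normalized counts in Young Sham 21 to 25 and at 171, 163, 201 and 299 in Young Bleo 17 to 20. Every Young Bleo library was below every Young Sham library, and Young Sham 22 was well above its group. Ednra was 2.82-fold lower in Young Bleo (log2 fold change -1.50 ± 0.51 SE, DESeq2 adjusted p = 0.028), a call that edgeR did not make (adjusted p = 0.0872). Without Young Sham 22 the log2 fold change was -1.26 (DESeq2 adjusted p = 0.109), and leaving out Young Bleo 17, 18 or 19 also ended the call, at -1.41, -1.39 and -1.47.

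In aged mice Ednra held 801, 339 and 631 normalized counts in Aged Sham 13 to 15 and 139, 11.8, 222 and 210 in Aged Bleo 1, 2, 3 and 5. All Aged Bleo libraries were below all sham libraries of either age, with Aged Bleo 2 lowest by far. Ednra was 4.03-fold lower than in Young Sham (log2 fold change -2.01 ± 0.51 SE, DESeq2 adjusted p = 0.00226, edgeR adjusted p = 0.0393) and 4.05-fold lower than in Aged Sham (log2 fold change -2.02 ± 0.58 SE, DESeq2 adjusted p = 0.0156, edgeR adjusted p = 0.0965). Without Aged Bleo 2 these were -1.63 and -1.63 and both remained called by DESeq2. Without Aged Bleo 1, Aged Sham 13 or Aged Sham 15 the aged comparison was no longer called, at -2.00, -1.74 and -1.97. Aged Sham and Young Sham had means of 590 ± 234 (SD, n = 3) and 588 ± 202 (SD, n = 5).

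Ece1 encodes the protease that completes endothelin-1. Its normalized counts were 27188, 40011, 37627, 21442 and 28758 in Young Sham, and 18633, 17536, 15640 and 30295 in Young Bleo 17 to 20. Library 20 again stood with Young Sham, and the groups overlapped. The log2 fold change was -0.60 ± 0.27 SE (DESeq2 adjusted p = 0.118), and without Young Bleo 20 it was -0.84 (adjusted p = 0.0103). In aged mice Ece1 was at 16663, 20943 and 26679 in Aged Sham 13 to 15 and at 21099, 15900, 35702 and 29765 in Aged Bleo 1, 2, 3 and 5, so these groups overlapped as well. The log2 fold change was 0.26 ± 0.30 SE (DESeq2 adjusted p = 0.731). The aged response exceeded the young by 0.85 ± 0.40 SE on the log2 scale (unadjusted p = 0.0351 with DESeq2 and 0.0459 with edgeR, DESeq2 adjusted p = 0.572), so it failed the correction.

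Edn3 encodes endothelin-3 and was scarce, with 47 to 278 raw counts in Young Sham. Its normalized counts were 132, 229, 189, 55.0 and 128 in Young Sham and 22.5, 0, 7.71 and 67.2 in Young Bleo 17 to 20. Young Bleo 20 overlapped Young Sham 24 and the other Young Bleo libraries lay below the group. In aged mice it was at 48.0, 106 and 2.74 in Aged Sham 13 to 15 and at 0, 13.3, 49.8 and 21.1 in Aged Bleo 1, 2, 3 and 5. Aged Bleo lay below Young Sham without overlap and overlapped Aged Sham. The log2 fold changes against Young Sham, -2.58 ± 1.08 SE in Young Bleo (DESeq2 adjusted p = 0.0862) and -2.80 ± 1.08 SE in Aged Bleo (DESeq2 adjusted p = 0.0739), did not pass the test. Without Young Bleo 20 the former was -3.85 (DESeq2 adjusted p = 0.00612), and without Aged Bleo 3 the latter was -3.68 (DESeq2 adjusted p = 0.0174).

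The balance of ligand to receptor transcript within a library followed from these values. Edn1 FPKM divided by Ednrb FPKM was 0.205, 0.135, 0.143, 0.140 and 0.135 in Young Sham 21 to 25. It was 7.82, 7.93, 6.33 and 0.556 in Young Bleo 17 to 20 and 15.3, 12.0, 0.544 and 0.511 in Aged Bleo 1, 2, 3 and 5. In Aged Sham 13 to 15 it was 0.292, 0.726 and 0.125. Edn1 exceeded Ednrb per length in 5 libraries, all from bleomycin-treated mice, and the remaining 3 bleomycin libraries lay above every Young Sham library yet below Aged Sham 14.

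**Figure D3:**
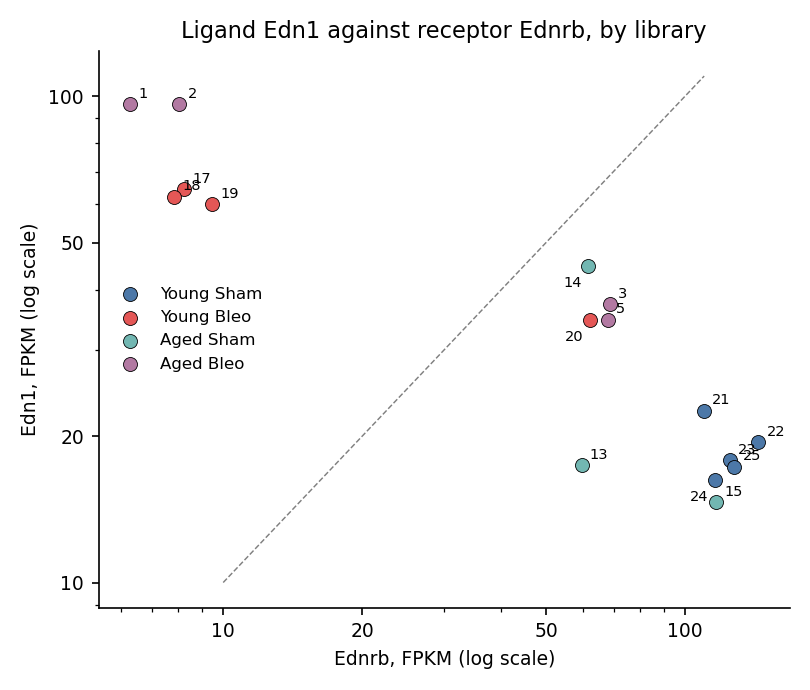
Edn1 FPKM against Ednrb FPKM on log axes, with 1 numbered point per library coloured by group and a dashed line of equal FPKM. The 5 points above the line are Young Bleo 17, 18 and 19 and Aged Bleo 1 and 2, and Young Bleo 20, Aged Bleo 3 and 5 and Aged Sham 14 sit close to each other between them and Young Sham.

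Markers of other cell types moved with these genes. The summed FPKM of 6 aerocyte markers other than Ednrb was 1820 to 2305 in Young Sham, 238, 322, 460 and 1217 in Young Bleo 17 to 20, 1819, 1496 and 2374 in Aged Sham 13 to 15, and 227, 399, 1639 and 1302 in Aged Bleo 1, 2, 3 and 5. The libraries low in Ednrb were the libraries low in aerocyte markers. All 6 markers were called lower in Young Bleo against Young Sham and 2 of 6 in Aged Bleo against Young Sham, with median log2 fold changes of -1.94 and -1.11 beside 0.0095 and 0.024 over all genes tested, of which 6.26% and 3.09% were called lower. In Aged Bleo against Aged Sham 0 of the 6 were called (median -1.11). Expressed as a percentage of that sum, Ednrb was 5.03 to 7.14 in Young Sham, 2.06 to 5.11 in Young Bleo, 3.28 to 4.92 in Aged Sham and 2.01 to 5.22 in Aged Bleo. Ednrb thus differed between libraries also relative to these markers, and the part of aerocyte content in the result was not tested.

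For Edn1, the summed FPKM of 6 arterial markers was 100 to 170 in Young Sham, 356, 387, 312 and 226 in Young Bleo 17 to 20, 81.7, 133 and 90.4 in Aged Sham 13 to 15 and 401, 324, 158 and 186 in Aged Bleo 1, 2, 3 and 5. Of the 6, 3 were called higher in Young Bleo and 4 in Aged Bleo against Young Sham (median log2 fold changes 0.98 and 0.81), beside 7.44% and 6.49% of all genes tested, and 3 in Aged Bleo against Aged Sham, beside 3.45%. Gja4, a connexin gene, made up most of this sum, with means of 93.1 and 66.1 FPKM in Young Sham and Aged Sham and of 260 and 206 FPKM in the corresponding bleomycin groups, whereas Efnb2 was not called in any comparison (means of 14.1 to 20.0 FPKM). As a percentage of the sum, Edn1 was 12.8 to 16.1 in Young Sham, 15.3 to 19.3 in Young Bleo, 16.2 to 33.7 in Aged Sham and 18.7 to 29.7 in Aged Bleo. Macrophage markers also differed among these libraries: 5 of the 6 listed were found, with a sum of 244 and 122 FPKM in Aged Bleo 1 and 2, 31.8 and 27.2 in Aged Bleo 3 and 5, 11.5 to 55.8 in Young Bleo and 1.69 to 5.38 in Young Sham. Of the 5, 2 were called higher in Young Bleo and 3 in Aged Bleo against Young Sham, and 3 in Aged Bleo against Aged Sham. Aged Sham 14 had 24.0 FPKM, against 5.11 and 2.65 in Aged Sham 13 and 15. Markers of other endothelial types moved as well. The sum of 6 venous markers was 33.1 to 63.8 FPKM in Young Sham, 67.6 to 109 in Young Bleo, 36.0 to 75.2 in Aged Sham and 74.0 to 98.3 in Aged Bleo, with 3 called higher in Young Bleo, 4 in Aged Bleo and 2 in Aged Sham against Young Sham, the last beside 2.19% of all genes tested. The sum of 6 lymphatic markers was 240 to 333, 655 to 1467, 222 to 323 and 275 to 581 FPKM in the same order, with 3 called higher in Young Bleo and 0 in Aged Bleo. Nearly all of it was the chemokine gene Ccl21a (means of 263, 970, 264 and 396 FPKM), and Prox1, Reln and Thy1 were each at most 1.27 FPKM. For 6 general capillary markers it was 488 to 695, 664 to 868, 348 to 536 and 568 to 740 FPKM, with 3 called higher in each bleomycin group against Young Sham and 3 in Aged Bleo against Aged Sham. Aplnr and Kit of that list were called lower in Aged Sham against Young Sham (-1.34 and -1.29 on the log2 scale), and Aplnr was also called lower in Aged Bleo against Young Bleo (-1.08). Kit was at 6.74 to 14.7 FPKM in Young Sham, 3.47 to 4.78 in Aged Sham and 10.2 to 15.1 in Aged Bleo. For the difference of responses 1 general capillary marker was called higher, beside 28 of the 20178 genes tested. The sum of 6 mesothelial markers was 2.08 to 3.47 FPKM in Young Sham, 7.73 to 21.8 in Young Bleo, 5.91 to 17.7 in Aged Sham and 1.83 to 10.2 in Aged Bleo. Of these, 5 were called higher in Young Bleo and 3 in either aged group against Young Sham. For the difference of responses 2 were called lower, beside 49 of the 20178 genes tested. The 5 leukocyte markers summed to at most 7.47 FPKM in any library, with 2 called higher in each of these groups against Young Sham. The part of any of these cell types in the Edn1 values was not tested.

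For Ednra, the summed FPKM of 8 pericyte markers was 19.8 to 40.1 in Young Sham, with the highest value in library 22, which also had the most Ednra. It was 5.55, 2.97, 5.59 and 6.46 in Young Bleo 17 to 20, 13.4, 4.09 and 9.53 in Aged Sham 13 to 15 and 2.44, 1.22, 5.77 and 7.72 in Aged Bleo 1, 2, 3 and 5, the lowest being Aged Bleo 2, which had the least Ednra. Against Young Sham 5 of the 8 markers were called lower in Young Bleo, 5 in Aged Bleo and 2 in Aged Sham (median log2 fold changes -2.39, -2.69 and -1.41), beside 6.26%, 3.09% and 1.1% of all genes tested. In Aged Bleo against Aged Sham, where Ednra was called lower, 0 of the 8 were called (median -1.15). No pericyte marker was at 0 throughout a group. Aged Sham had fewer pericyte transcripts than Young Sham without overlap, while its Ednra overlapped Young Sham, and Ednra came to 9.29 to 13.6% of the pericyte sum in Aged Sham against 3.27 to 4.74% in Young Sham. Smooth muscle markers summed to 40.1 to 84.9 FPKM in Young Sham, 15.8 to 46.9 in Young Bleo, 29.2 to 44.3 in Aged Sham and 11.8 to 19.0 in Aged Bleo. Of these 5 markers, 2 were called lower in Young Bleo and 5 in Aged Bleo against Young Sham, and 3 in Aged Bleo against Aged Sham, the last beside 2.48% of all genes tested. The sum of 6 fibroblast markers was 13.3 to 27.96 FPKM in Young Sham, 15.1 to 28.7 in Young Bleo, 15.7 to 39.3 in Aged Sham and 7.75 to 12.1 in Aged Bleo. Of the 6, 1 was called lower in Young Bleo and 3 in Aged Bleo against Young Sham, and 2 in Aged Bleo against Aged Sham, beside 6.26%, 3.09% and 2.48% of all genes tested. Median log2 fold changes were 0.29, -1.11 and -1.72. In Aged Sham against Young Sham 1 was called higher, beside 2.19% of all genes tested. Against Young Bleo 1 was called lower in Aged Bleo, beside 77 of 18743 genes, and 1 for the difference of responses, beside 49 of 20178. The part of mural cell or fibroblast content in the Ednra result was not tested.

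**Figure D4:**
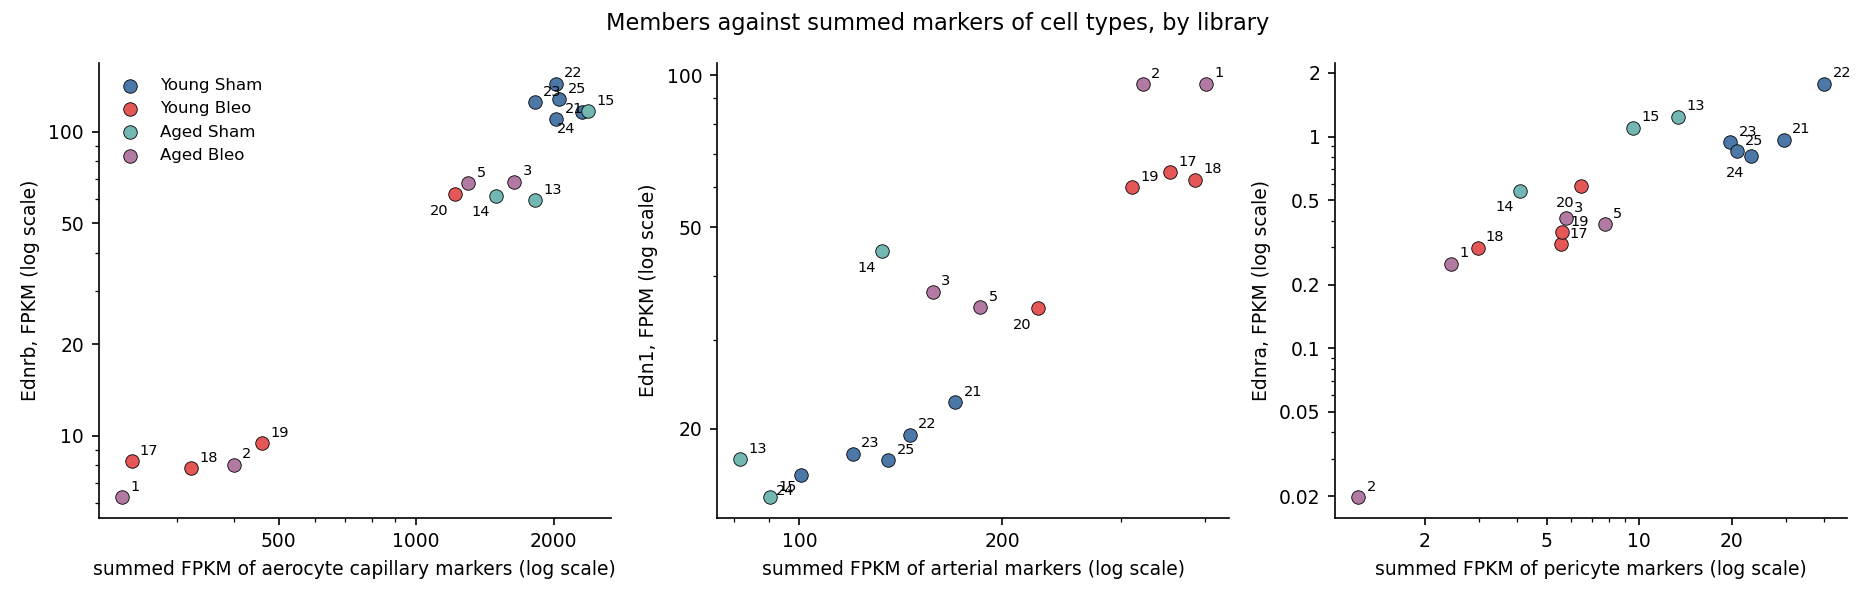
FPKM of Ednrb, Edn1 and Ednra against the summed FPKM of aerocyte, arterial and pericyte markers on log axes, with 1 numbered point per library coloured by group. Libraries low in Ednrb were low in aerocyte markers, and Aged Bleo 2 was lowest for both Ednra and pericyte markers.

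Around the 5 genes, the endothelin pathway was read from 3 lists. Of 10 genes for other steps of endothelin production and breakdown, 6 could be tested with DESeq2. In Young Bleo against Young Sham 2 were called higher and 0 lower (median log2 fold change 0.09, beside 0.0095 over all genes tested), where 7.44% of all genes tested were called higher and 6.26% lower. Ece2, a converting enzyme related to Ece1, rose by 0.93 ± 0.28 SE (DESeq2 adjusted p = 0.00868, edgeR adjusted p = 0.0319) from 0.576 to 1.02 FPKM in Young Sham to 1.34 to 1.98 FPKM in Young Bleo, without overlap. Mcpt4, a mast cell chymase, was also called there and in Aged Bleo against Young Sham, at 0 to 0.0342 FPKM in Young Sham, 0 to 2.54 in Young Bleo (median 0.0965) and 0.116 to 2.51 in Aged Bleo. Its level in Aged Sham was 0.115 to 1.31 FPKM, and it was not called in Aged Bleo against Aged Sham (log2 fold change 0.70, DESeq2 adjusted p = 0.899). Ctsa, which encodes a lysosomal protease able to degrade endothelin-1, was the most abundant listed gene, at 101 to 122 FPKM in Young Sham and 79.7 to 93.7 FPKM in Young Bleo. Its log2 fold change of -0.40 there passed the adjusted p (DESeq2 0.00924, edgeR 0.047) but not the fold threshold of 0.5. Edn2, the third endothelin gene, had 0 FPKM in 15 of the 16 libraries and 0.0691 FPKM in 1 Aged Bleo library.

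Of 11 transcription factors known to act on Edn1 or in endothelial gene control, all 11 were tested. In Young Bleo against Young Sham 3 were called higher and 3 lower (median log2 fold change -0.30), in Aged Bleo against Young Sham 3 higher and 0 lower (median -0.08), in Aged Bleo against Aged Sham 0, and in Aged Sham against Young Sham 2 higher and 0 lower (median 0.14, beside 0.021 over all genes tested). Of all genes tested, 7.44% were called higher and 6.26% lower in Young Bleo, 6.49% and 3.09% in Aged Bleo and 2.19% and 1.1% in Aged Sham, each against Young Sham. Fos, an AP-1 subunit and immediate early gene, rose in Young Bleo, Aged Bleo and Aged Sham against Young Sham, by 1.89 ± 0.28, 2.38 ± 0.28 and 2.15 ± 0.30 SE on the log2 scale. Its levels were 8.91 to 23.5 FPKM in Young Sham, 51.0 to 86.9 in Young Bleo, 39.6 to 86.8 in Aged Sham and 60.8 to 121 in Aged Bleo. Fos was also the only listed factor called for the difference of responses, at -1.65 ± 0.42 SE (DESeq2 adjusted p = 0.0321, edgeR adjusted p = 0.352).

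Erg, an ETS factor of ECs, rose by 0.69 ± 0.15 SE in Young Bleo, 0.53 ± 0.15 SE in Aged Bleo and 0.67 ± 0.16 SE in Aged Sham against Young Sham, from 2.52 to 4.76 FPKM in Young Sham to 5.11 to 6.13, 4.48 to 5.25 and 4.83 to 5.21 FPKM. The edgeR adjusted p for Aged Sham was 0.0558. Hif1a, the oxygen-regulated factor that binds the hypoxia core, rose by 0.98 ± 0.30 SE in Young Bleo and 0.83 ± 0.29 SE in Aged Bleo against Young Sham, the latter with an edgeR adjusted p of 0.0953. Gata2, a GATA factor of ECs, fell by 0.92 on the log2 scale in Young Bleo (SE 0.22), from 49.1 to 65.2 FPKM to 26.0 to 49.2 FPKM. In Aged Bleo it was not called, at -0.36 against Young Sham and -0.45 against Aged Sham (DESeq2 adjusted p = 0.339 and 0.312). The flow-responsive factor Klf2 fell by 0.78 and the NF-kappaB subunit Rela fell by 0.91 in Young Bleo. In Aged Bleo their log2 fold changes were -0.25 and -0.58 against Young Sham and -0.53 and -0.50 against Aged Sham, none of them called, and the difference between the aged and young responses was not called for either (DESeq2 adjusted p = 0.901 and 0.845).

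Of 22 genes of endothelin receptor signalling, in Young Bleo against Young Sham 3 were called higher and 4 lower, in Aged Bleo against Young Sham 2 higher and 2 lower, in Aged Bleo against Aged Sham 3 higher and 1 lower and in Aged Sham against Young Sham 1 higher, and the median log2 fold changes were -0.04, -0.04, -0.08 and 0.07, beside 0.0095, 0.024, 0.0046 and 0.021 over all genes tested. Of all genes tested in Aged Bleo against Aged Sham, 3.45% were called higher and 2.48% lower, and the shares in the comparisons with Young Sham are those given for the transcription factors. Nos3, the endothelial nitric oxide synthase that the B receptor activates, rose in all 3 bleomycin comparisons, by 1.57 ± 0.22, 1.06 ± 0.22 and 1.24 ± 0.25 SE. It was at 4.33 to 8.07 FPKM in Young Sham and 3.99 to 5.95 in Aged Sham, below the 17.3 to 21.2 of Young Bleo and the 9.19 to 19.0 of Aged Bleo, with no overlap between sham and bleomycin libraries. Itpr3, a calcium release channel, rose in the same 3 comparisons by 1.18, 1.13 and 0.94, the last with an edgeR adjusted p of 0.0614. Plcb1, the phospholipase downstream of Gq, rose by 1.09 ± 0.23 SE in Young Bleo against Young Sham and by 0.78 ± 0.26 SE in Aged Bleo against Aged Sham, the latter with an edgeR adjusted p of 0.116.

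In the comparisons with Young Sham, the genes of this list called lower were G protein subunits and protein kinase C isoforms. Gna13 fell by 0.89 in Young Bleo and by 0.60 in Aged Bleo against Young Sham, and Prkce, protein kinase C epsilon, fell by 1.21 and by 0.84, the latter with an edgeR adjusted p of 0.0621. Gnaq, the Gq subunit, fell by 0.67 in Young Bleo, and Prkca fell by 1.51 there, with an edgeR adjusted p of 0.094. Ptgis, prostacyclin synthase, was the list's only call for age: it rose by 1.05 ± 0.21 SE in Aged Sham, from 6.60 to 7.21 FPKM in Young Sham to 11.6 to 16.1 FPKM. In Aged Bleo against Aged Sham it fell by 0.68 (DESeq2 adjusted p = 0.0313, edgeR adjusted p = 0.105).

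The genes whose levels ran most like each member were taken from the 13774 genes averaging 50 or more normalized counts, by Pearson r of log2(normalized count + 1) over the 16 libraries. These values are a description, since the libraries share groups and fall into sets. For Edn1 they were Ankrd37, Lpl, Lrp2bp, Cdc42ep4 and Ldha (r of 0.98 down to 0.96), of which Lpl is also on the general capillary list. For Ednrb they were Pydc3, Itga3, Slc16a9, Chst2 and Cyp4b1, all with r of 0.99. For Ednra they were Notch3, Ndrg2, Nthl1, Atp1b2 and Vtn (0.94 to 0.91), of which Notch3 is also on the pericyte list. For Ece1 they were Man1c1, Dnm2, Afap1l1, Wwc2 and Stat5b (0.97 to 0.95), and for Edn3 Plekhm3, Mysm1, Clstn2, Nrxn2 and Rab44 (0.88 to 0.84).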

How the data were processed

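RNA sequencing of lung ECs was analysed from the gene table that the authors deposited, with 16 libraries in 4 groups taken from the titles. Per the labels and the study's methods, the authors aligned reads to mm10 with STAR (2.5.2b) and counted them with featureCounts of Subread. The deposited read counts are raw whole numbers, and the deposited FPKM values scale them by gene length and a library total, of which the counts made up 40.3% to 44.7%. The annotation release, strand setting and treatment of reads with several placements are not given in the sources used here. Reads of Ece1 and of its antisense neighbour Gm13012 (0 to 9 counts), and of Ednra and 4933431K23Rik (0 to 24 counts), cannot be told apart without strand. The library kit differs between the labels (SMART-Seq v4 with Nextera) and the methods (TruSeq).

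Counts were tested with DESeq2 (1.42.0, R 4.3.3), the tool the methods name, in 1 model of all 16 libraries with group as its term, the Wald test, unshrunken fold changes and default filters, adjusted over all genes tested by Benjamini-Hochberg. A call needed an adjusted p no higher than 0.05 and a log2 fold change of 0.5 or more in size. Alternatives were edgeR (4.0.16), limma (3.58.1) voom, limma-trend on log2(FPKM + 0.1) and log2(FPKM + 1), poscounts size factors, a filter of at least 10 counts in at least 3 libraries, no filters, the compared groups only, and each library left out. The fits were tested on simulated data. The genes named are the 5 members, listed pathway genes that were called, and the 5 genes most like each member. Members and lists were chosen with earlier results of these data known. Total counts were 20.9 to 71.0 mega-counts. The labels give no sequencing batch.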

Additional observations from a re-analysis of the deposited data

Results flagged for a closer look

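Of 15 gene and group combinations with 4 or more libraries, 4 held a library farther from the rest of its group than Dixon's 95% critical value allows. Chance marks about 5% of such groups, but these combinations share libraries and are not independent of each other. Young Bleo 20 was the lowest of its group for Edn1, at 7616 normalized counts against 14552 for the nearest library. The same library was the highest for Ednrb, at 23573 against 3962. Young Sham 22 was the highest for Ednra, at 947 against 535. Young Sham 21 was the highest for Edn1, at 5348 against 4432. The split of the Aged Bleo group, in which libraries 1 and 2 differ from 3 and 5, is not marked by this measure, which looks for a single distant library, and the Aged Sham group was too small to be examined.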

How the results depend on the processing

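Edn1 and Ednrb in Young Bleo against Young Sham, and Edn1 and Ednra in Aged Bleo against Young Sham, kept their direction and their side of the threshold under every alternative run, each library left out included. Ednra in Young Bleo was not called by edgeR (-1.49), limma voom (-1.49) or limma-trend on log2(FPKM + 0.1) (-1.24), and ranged from -1.72 to -1.26 with single libraries left out, when the number of members called ranged from 2 to 5. The calls in Aged Bleo against Aged Sham also depended on the method and on single libraries. There 0 members were called by edgeR (Edn1 1.27, Ednra -2.00), limma voom (1.27, -2.48), limma-trend with 0.1 (1.38, -1.67) or 1 (1.34, -0.63) added to FPKM and DESeq2 on the compared groups only (1.25, -2.02), and 1 without independent and Cook filtering (Edn1 1.26, not called). With single libraries left out, 0 to 2 were called, with Edn1 at 0.95 to 1.93 and Ednra at -2.30 to -1.63. The cause was not tested.

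Directions near 0 turned. For Aged Sham against Young Sham, Ednra was -0.0089 by edgeR, -0.026 with poscounts, -0.12 by limma voom, and -0.14 and -0.071 by limma-trend with 0.1 and 1 added, and ranged from -0.27 to 0.28 with single libraries left out, as did Edn1 from -0.076 (without Aged Sham 14) to 0.90. Likewise Edn3 in Aged Bleo against Young Bleo ranged from -1.09 to 1.05, and the response difference of Edn1 from -0.60 to 0.38.

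Over all genes, edgeR called fewer than DESeq2: 158 against 617 for Aged Sham and 1043 against 1797 for Aged Bleo (both against Young Sham), 146 against 1082 for Aged Bleo against Aged Sham, 8 against 191 for Aged Bleo against Young Bleo and 1 against 77 for the response difference. In the same order limma voom called 104, 1120, 53, 29 and 1, limma-trend with 0.1 added 137, 747, 84, 22 and 2, and limma-trend with 1 added 95, 495, 36, 22 and 2. For Young Bleo against Young Sham limma-trend called 1521 and 1076 against 2568 by DESeq2, and the compared groups only gave 635 for Aged Bleo against Aged Sham. Leaving out single libraries moved the counts to 374 to 672, 1768 to 3340, 1024 to 2271, 479 to 1479, 105 to 464 and 38 to 220 in the order Aged Sham, Young Bleo and Aged Bleo against Young Sham, Aged Bleo against Aged Sham, Aged Bleo against Young Bleo and the response difference. No paired analysis was possible because the library numbers do not repeat between groups. Edn3 had 0 to 87 raw counts in the bleomycin libraries, which limits its precision.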
